A study of Mus musculus with 2 samples.

Results

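The actin filament regulators are a list of 49 genes whose products build, cut, cap, cross-link or anchor actin filaments. A gene was represented by every probe set, a group of short array probes, whose only symbol in the platform annotation was that gene. In all 44 of the 49 genes had such probe sets, 106 of the 45101 on the array, and 3 of the 106 were array control probe sets for beta-actin. The other 103 probe sets carry the values described here. For Arpc1b, Arpc3, Actr2, Diap1 and Diap2 the annotation held none under these symbols alone. RefSeq lists Diap1 and Diap2 as older names of Diaph1 and Diaph2, which are described with the wider list of actin genes.

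The cells were G1E, mouse erythroid progenitors without GATA-1, carrying ER-GATA-1(V205G). This fusion joins a ligand-binding domain of the estrogen receptor to a form of GATA-1 that is defective in binding its cofactor FOG-1, and it is activated by estradiol. The untreated group was 1 array of these cells at 0 h, before treatment, and the estradiol group was 1 array after these cells had been kept in 1 µM estradiol for 24 h. Both groups therefore share the loss of GATA-1 and the presence of the fusion, and the labels do not say whether the line was 1 clone. Each group held 1 array, so no comparison below has a replicate check, a p-value or an error between cultures. Neither untreated cells kept for 24 h nor cells lacking the fusion were analysed here, so the activated mutant, estradiol itself and time in culture cannot be told apart. In a culture measured in bulk, a smaller share of cells of 1 kind and less RNA per cell cannot be told apart either.

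Actin exists as monomers that join into filaments and leave them again. The Arp2/3 complex starts new branches when WASP-family proteins activate it, formins and Ena/VASP proteins lengthen filaments, profilin and thymosins hold monomers, cofilins and gelsolin cut filaments, and capping proteins close their ends. Cross-linkers such as filamin and plastin bind filaments into nets and bundles, coronins act on branches and on the cortex under the membrane, ERM proteins tie filaments to the membrane, and myosin II pulls on them. Red cell precursors replace much of this migratory cortex with a skeleton of spectrin and short actin filaments as they mature.

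Values are linear signal intensities. The 50th percentile of all signals, 95.2, served as a floor, and a probe set at or above it on both arrays was called measured. The log2 ratio is that of estradiol over untreated, and a gene took the ratio of its brightest probe set. Of the 45037 probe sets that were not controls, 49.2% reached the floor untreated and 50.9% with estradiol. The size against which a ratio can be read is the pooled SD between probe sets of the same gene, 0.25 on the log2 scale. The limit used for a gene was 2 such SDs within its tertile of signal, 0.60 for dim, 0.50 for intermediate and 0.40 for bright genes, and it covers probe noise, not differences between cultures. The tertiles were cut at mean signals of 579 and 1335, from genes with several measured probe sets. A gene was placed by its brightest probe set, so the tertiles held unequal shares of the 10240 measured genes: 4194, 2404 and 3642. All 8 erythroid progenitor markers on the list checked, among them Kit, Tal1, Epor and Klf1, were above the floor on both arrays, with signals of at least 2295. They summed to 38294.5 untreated and 37669.2 with estradiol but differed both ways. Klf1 and Lmo2 had log2 ratios of 0.62 and 0.70, and Tal1 had -0.56. Of the markers of other cell types, those of megakaryocytes, macrophages and neutrophils, lymphocytes, and fibroblasts and smooth muscle summed to 966, 923, 1207 and 980 untreated and to 1038, 1010, 1218 and 1102 with estradiol. At the floor untreated were 3 of 6 megakaryocyte markers, 3 of 9 of macrophages and neutrophils, 3 of 7 of lymphocytes, and 3 of 10 of fibroblasts and smooth muscle, and with estradiol 3, 5, 3 and 3. Itga2b, Gp5, Pf4, Csf1r, Adgre1, Cd68, Cd8a, Ighm, Ms4a1, Acta2, Col1a2 and Pdgfra were above it on both arrays, with signals up to 721, while Vwf, Itgam, Elane, Cd3e, Cd79a, Col1a1 and Dcn were below it on both. The neutrophil markers Mpo, from 85.0 to 137, and Ltf, from 60.0 to 114, reached the floor with estradiol only. Of 6 mast cell markers 4 reached the floor on each array, and the list summed to 9005 untreated and 5563 with estradiol, with Cpa3 going from 6616 to 1146, Ms4a2 from 2093 to 791 and Tpsab1, in the other direction, from 140 to 3418. Fcer1a went from 144 to 47.3, the latter below the floor, and Hdc from 3.80, below the floor, to 152. Mcpt4, a connective tissue mast cell protease gene, was below the floor on both arrays (7.60 and 8.80).

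Of the 44 genes with probe sets, 38 were measured on both arrays, 1 (Lcp1) reached the floor without estradiol only, and 5 (Pfn2, Tmsb4x, Pls3, Myh10 and Myl9) were below it on both. Among the 38, 4 were at least 2-fold lower after estradiol and 0 at least 2-fold higher. The 4 were Flna, Coro2a, Coro1a and Capg, which are 10.5% of the 38. Of all 10240 measured genes, 1.10% were at least 2-fold lower and 2.04% at least 2-fold higher. In the highest tertile of signal, which holds 27 of the 38, the shares of all genes were 0.851% and 1.98%, and the median log2 ratio was -0.18 for the members and -0.04 for all genes. Of the 4, only Flna and Coro2a are in that tertile, while Coro1a and Capg are in the lowest. By size of the ratio downward, Flna stood 10th, Coro2a 12th, Coro1a 17th and Capg 80th among the 10240. Of the 38, 30 lay within 1.5-fold, 6 were at least 1.5-fold lower (15.8%, against 4.85% of all genes) and 2 at least 1.5-fold higher (5.26%, against 7.11%). Past the limit of 2 SD were 9 members lower, against 7.23% of all genes, and 2 higher, against 8.62%. The 9 were Flna, Coro2a, Coro1a, Capg, Vasp, Zyx, Myh9, Was and Actg1, and the 2 were Arpc1a and Evl. The median log2 ratio of the 38 was -0.13 and that of all genes 0.00, and 27 of the 38 had a ratio below 0, against 49.9% of all genes. With both arrays scaled to a common median, the median of all genes moved to -0.11 and that of the members to -0.24. The difference between those medians was about as large as before. No test stands behind these counts, because 1 array a group allows none, and the list was proposed with results of these arrays known.

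**Figure D1:**
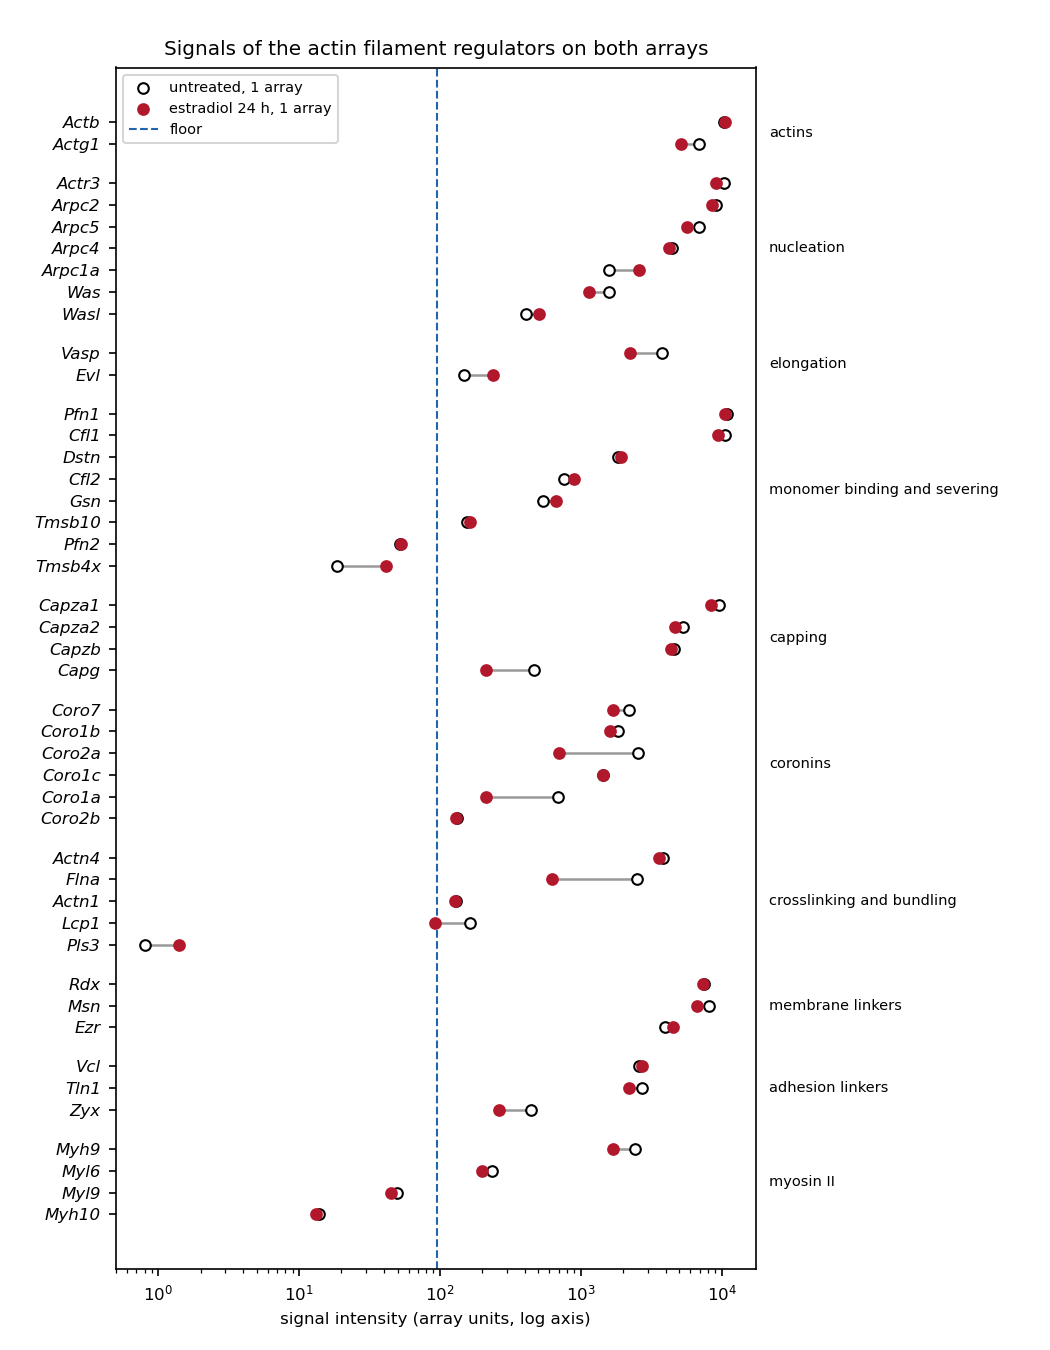
Signal intensity (log axis) of the brightest probe set of each of the 44 genes, open circles untreated and filled circles 24 h estradiol, 1 array each, grouped by role, with the floor of 95.2 as a dashed line. The long leftward segments are those of Flna, Coro2a, Coro1a and Capg, while most other pairs lie almost on top of each other.

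Actin itself was present at high signal on both arrays. Actb, the beta-actin gene, read 10362 untreated and 10599 with estradiol, a log2 ratio of 0.03 (-0.08 with a common median), and its other probe set read 3142 and 3180. The 3 array control probe sets for beta-actin had log2 ratios of -0.01, -0.01 and -0.02. Actg1, the gamma-actin gene, read 6883 and 5195, 1.32-fold lower with a log2 ratio of -0.41, just past the limit of 0.40 for its tertile. Its only probe set has the suffix that marks probes shared between transcripts, so part of the signal can come from near-identical actin copies.

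The nucleation genes, the subunits of the Arp2/3 complex and its activators, held 2 genes past the limit of 2 SD, Arpc1a higher and Was lower. All 7 genes with probe sets were measured, with a median log2 ratio of -0.09. Past 2-fold were 0 of them, against 1.10% of all genes lower and 2.04% higher. Actr3, which encodes the actin-related protein Arp3 at the core of the complex, read 10369 and 9141, with 3 probe sets between -0.19 and -0.17. Arpc2 read 9133 and 8578 (-0.09), Arpc4 read 4456 and 4216 (-0.08) and Arpc5 read 6893 and 5674 (-0.28). These 4 subunit genes thus lay within 0.40 of no difference.

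Arpc1a, which encodes one of the alternative forms of the p40 subunit, read 1590 untreated and 2610 with estradiol. That is 1.64-fold higher (log2 ratio 0.72), the highest ratio of any measured member, and it has 1 probe set of its own. Was, which encodes the blood cell form of the activator WASP, read 1578 and 1138, 1.39-fold lower (-0.47). Wasl, which encodes the widely expressed relative N-WASP, read 409 and 505 on its brightest probe set (0.31). Its 4 measured probe sets disagreed, with log2 ratios from -0.31 to 0.86, so no direction can be given for Wasl.

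The 2 Ena/VASP genes, whose products keep filament ends growing, differed in opposite directions. Vasp read 3805 untreated and 2251 with estradiol, 1.69-fold lower (log2 ratio -0.76). Evl read 149 and 236, 1.58-fold higher (0.66), on a probe set not far above the floor, and its other 3 probe sets were below the floor on both arrays. Each ratio therefore rests on 1 probe set.

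Genes for monomer binding and severing showed small differences. Of 8 genes 6 were measured, and their log2 ratios ran from -0.17 to 0.29 with a median of 0.07. All 6 lay within 1.5-fold, as did most genes: 4.85% of all measured genes were past it lower and 7.11% higher. The count of 6 therefore does not set this role apart. Pfn1, the profilin gene, read 10912 and 10555 (-0.05), and Cfl1, the main cofilin gene of nonmuscle cells, read 10567 and 9406 (-0.17). Dstn, which encodes destrin, read 1852 and 1934 (0.06), and Cfl2, the muscle form of cofilin, read 758 and 889 (0.23). Gsn, the gene of the severing protein gelsolin, read 544 and 664, and its 4 measured probe sets all lay above 0, from 0.13 to 0.47, short of the limit of 0.50. Tmsb10, a thymosin gene, read 155 and 165. The only Tmsb4x probe set read 18.6 and 41.4, and the brightest of Pfn2 read 52.5 and 52.6, all below the floor, so no ratio was formed.

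Among the capping genes the gelsolin relative Capg stood apart from the capping protein heterodimer. Capg, which caps filament ends without cutting them, read 466 untreated and 213 with estradiol, 2.18-fold lower (log2 ratio -1.13). Its second probe set read 106 and 73.2, below the floor with estradiol, and was at least 1.11-fold lower. Both probe sets were lower on the estradiol array. Capza1 and Capza2, the alpha subunits, read 9551 and 8424 (-0.18) and 5287 and 4640 (-0.19), and Capzb, the beta subunit, read 4589 and 4404 (-0.06). The measured second probe sets of these 3 genes lay between -0.29 and -0.06. With the floor at the 70th percentile, a signal of 319, Capg had only a bound of -0.55 on the log2 scale and was no longer past 2-fold.

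Of the coronin genes, Coro2a and Coro1a were past 2-fold lower, Coro7 lay between these and 0, and Coro1b, Coro1c and Coro2b lay closer to 0. Coro2a read 2551 untreated and 703 with estradiol, 3.63-fold lower (log2 ratio -1.86), on its only probe set. Coro1a, the coronin of blood cells, read 693 and 213, 3.25-fold lower (-1.70). A second Coro1a probe set read 287 and 58.1, the latter below the floor, so at least 3.01-fold lower, and the third read 28.9 and 28.1, below the floor on both arrays. Both Coro1a probe sets with signal were thus lower with estradiol. With the floor at the 70th percentile, Coro1a had only a bound, -1.12 on the log2 scale, which is still past 2-fold.

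The other coronins differed by less than 1.5-fold on their brightest probe sets. Coro1b read 1843 and 1612 (-0.19) and Coro1c read 1443 and 1446 (0.00), with 0.09 on its other measured probe set. Coro2b, the close relative of Coro2a, read 133 and 131 (-0.02), near the floor. Coro7, a coronin of the Golgi, read 2192 and 1693 (-0.37), and its 5 measured probe sets all lay below 0, from -0.64 to -0.24, the lowest of them 1.56-fold lower. The coronin ratios ran from -1.86 to 0.00 with a median of -0.28.

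**Figure D2:**
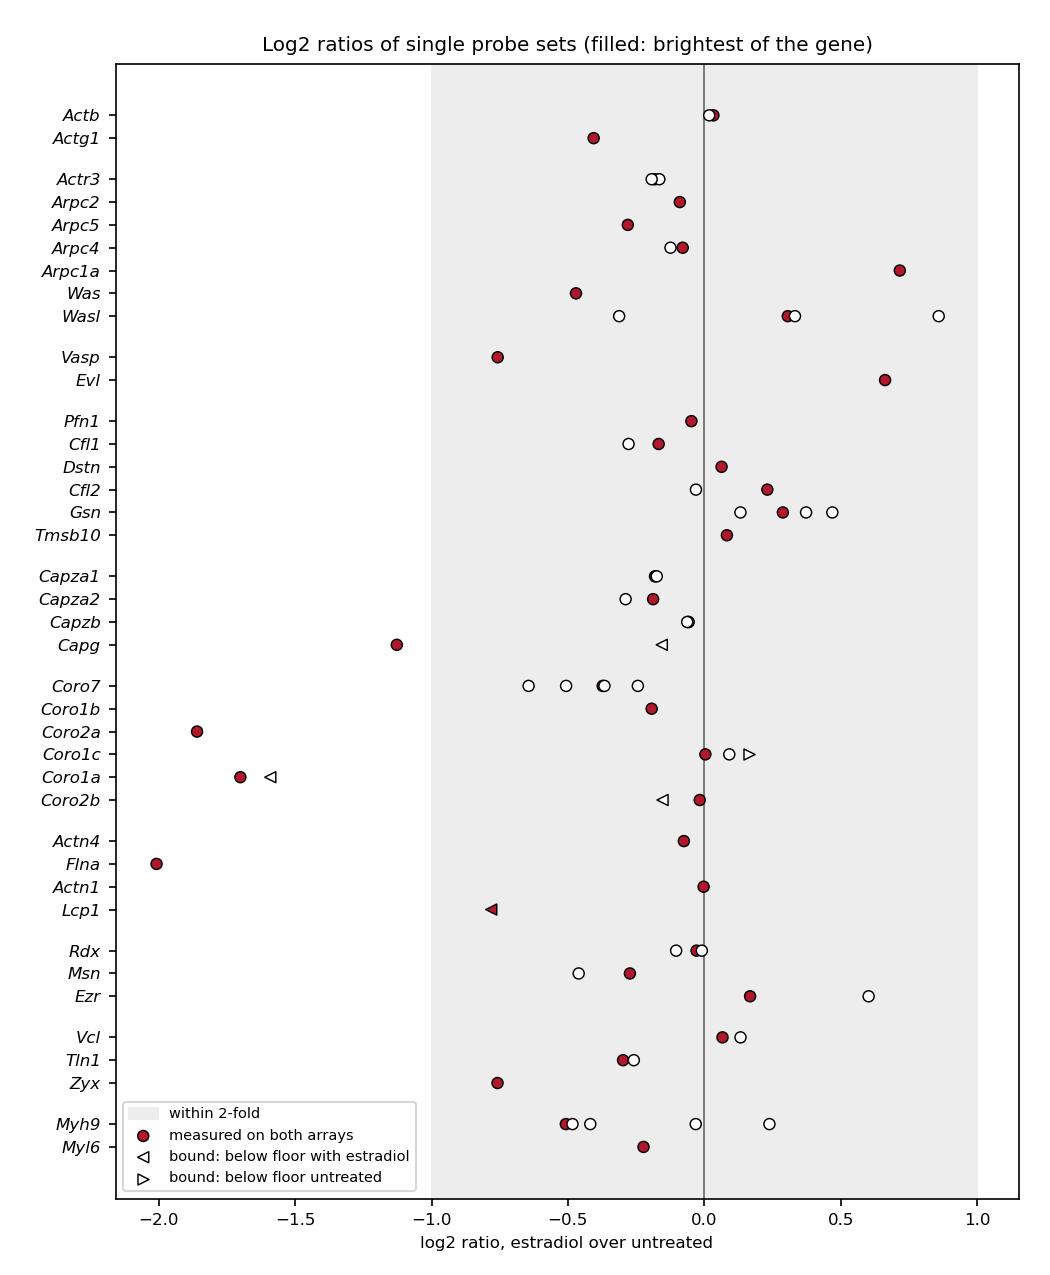
Log2 ratio of estradiol over untreated for each probe set that reached the floor, by gene, with circles for ratios measured on both arrays, triangles for bounds, filled symbols for the brightest probe set of a gene, and grey for changes within 2-fold. The brightest probe sets of Flna, Coro2a, Coro1a and Capg lie left of the grey area, while the second of Capg is a bound within it. The probe sets of Cfl2, Wasl and Myh9 lie on both sides of 0.

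Of the cross-linkers, filamin A was the lowest. Flna, which encodes filamin A, a dimer that joins filaments at wide angles and ties them to membrane receptors, read 2515 untreated and 626 with estradiol. It was 4.02-fold lower (log2 ratio -2.01), on its only probe set. Lcp1, the gene of L-plastin, the filament bundler of white blood cells, read 164 and 92.9, the latter below the floor, so at least 1.72-fold lower. Its second probe set read 73.4 and 11.4, below the floor on both arrays.

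The alpha-actinin genes did not share that difference in size. Actn4 read 3820 and 3625 (-0.08) and Actn1 read 129 on both arrays (0.00). Pls3, which encodes another plastin, read no more than 1.40 on either array, far below the floor. The 4 genes past 2-fold, and Lcp1, were lower on the array on which the mast cell markers Cpa3, Ms4a2 and Fcer1a were also lower. Tpsab1 and Hdc of the same list were higher on that array, so the markers did not differ in 1 direction. The part of these marker differences in the ratios of the members was not tested.

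The ERM genes, whose products link filaments to the membrane, were all within 1.5-fold on their brightest probe sets. Of all measured genes, 4.85% were at least 1.5-fold lower and 7.11% higher. Msn (moesin) read 8124 and 6722 (-0.27), with -0.46 on its other probe set. Rdx (radixin) read 7538 and 7388 (-0.03), with all 3 probe sets between -0.10 and -0.01. Ezr (ezrin) read 3994 and 4484 (0.17), with 0.60 on its other probe set. Moesin and ezrin thus leaned in opposite directions, both on pairs of probe sets, but neither brightest probe set passed the limit of 0.40.

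Among the genes of proteins that tie filaments to integrin adhesions, Zyx differed most. Zyx (zyxin) read 443 and 262, 1.69-fold lower (log2 ratio -0.76, against a limit of 0.60), and its second probe set read 23.1 and 15.4, below the floor. Tln1 (talin), which activates integrins, read 2705 and 2200 (-0.30), with -0.26 on its other measured probe set. Vcl (vinculin), which binds talin, read 2585 and 2706 (0.07).

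Of the myosin II genes only Myh9 and Myl6 were measured. Myh9, the heavy chain of nonmuscle myosin IIA, read 2419 and 1701 (-0.51) on its brightest probe set. Its 5 probe sets ran from -0.51 to 0.24: 3 of them lay between -0.51 and -0.42, 1 read 1716 and 1678 (-0.03), and 1 near the floor read 99.9 and 118 (0.24). The probe sets therefore disagree on whether Myh9 was lower. The brightest has the suffix s, and without s and x probe sets the value of Myh9 was -0.03, that of the next brightest. The lower probe sets at -0.48 and -0.42 carry neither suffix. Myl6, an essential light chain gene, read 234 and 201 (-0.22) on the probe set that names it alone. A pair of much brighter probe sets shared with other genes is described in the closing section. Myh10, the IIB heavy chain gene, and Myl9, a regulatory light chain gene, were below the floor on both arrays, at 13.8 and 13.2 and at 49.6 and 44.7.

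Probe sets of 1 gene usually lay on the same side. Of the 18 members with more than 1 measured probe set, 15 had all of them on 1 side of 0, and the 3 exceptions were Cfl2, Wasl and Myh9. Some of the 15 lay close to 0, such as Actb (0.02 and 0.03) and Rdx (-0.10 to -0.01). The same share over all genes was not counted. Counted by probe set, 4 of 69 measured were at least 2-fold lower and 0 at least 2-fold higher, against 1.01% and 2.03% of all 21054 measured probe sets. At 1.5-fold, 7 were lower and 4 higher, against 4.60% and 7.59% of all. In the suffixes of the probe set names, x marks probes that can bind unrelated transcripts and s marks probes shared between transcripts. Of the 103 probe sets 15 had the former and 7 the latter, and 8 genes took their value from one of these. None of the 4 genes past 2-fold was among the 8.

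**Figure D3:**
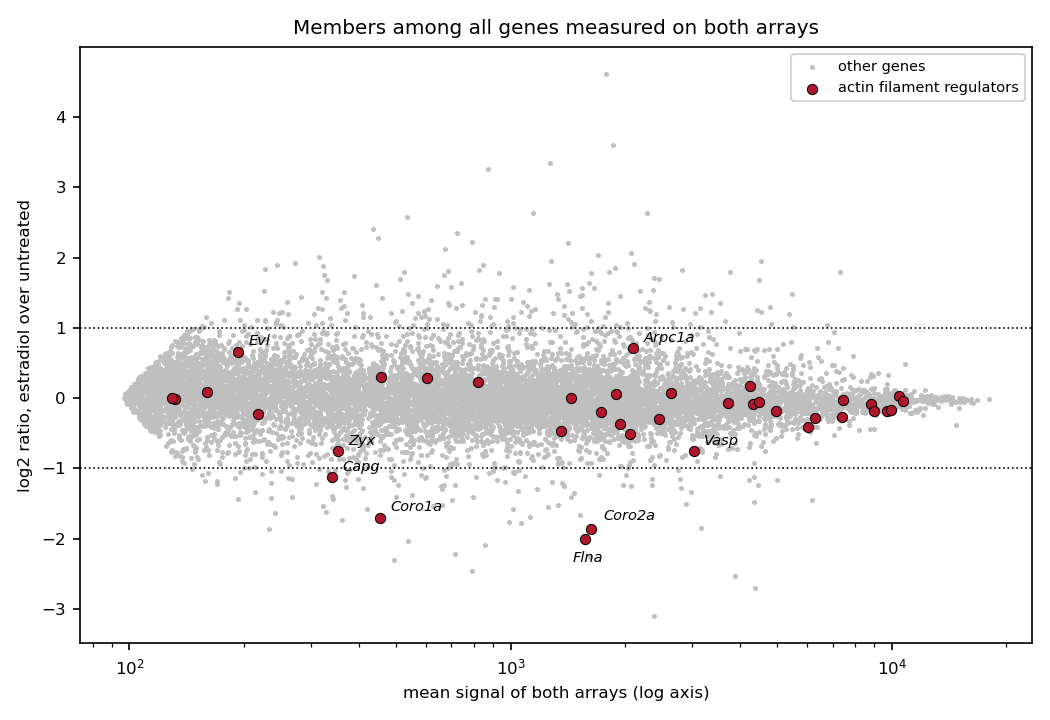
Log2 ratio of estradiol over untreated against mean signal (log axis) for the 10240 genes measured on both arrays, with the 38 measured members as large points and dotted lines at 2-fold. Flna and Coro2a lie among the lowest genes at their signal, and the members of highest signal lie close to 0.

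The promoter stretches of the 4 genes past 2-fold lower and of Arpc1a are shown to set them beside those of 2 members that hold a CArG box, the site of serum response factor (SRF), a regulator of many cytoskeletal genes. Each stretch holds the 250 bases before the most upstream start in the RefSeq promoter table for GRCm38.p6, 5′ to 3′ on the gene's strand, with motif matches in capitals. The first 4 belong to the genes past 2-fold lower, the fifth to the member with the highest ratio, and the last pair to Actg1 and Vcl.
Flna (chrX:74246535-74246784, minus strand): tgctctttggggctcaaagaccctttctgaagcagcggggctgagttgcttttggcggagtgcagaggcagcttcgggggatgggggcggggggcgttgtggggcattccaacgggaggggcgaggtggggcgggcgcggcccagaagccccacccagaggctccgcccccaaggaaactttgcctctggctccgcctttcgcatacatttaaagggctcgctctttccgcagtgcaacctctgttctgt
Coro2a (chr4:46601930-46602179, minus strand): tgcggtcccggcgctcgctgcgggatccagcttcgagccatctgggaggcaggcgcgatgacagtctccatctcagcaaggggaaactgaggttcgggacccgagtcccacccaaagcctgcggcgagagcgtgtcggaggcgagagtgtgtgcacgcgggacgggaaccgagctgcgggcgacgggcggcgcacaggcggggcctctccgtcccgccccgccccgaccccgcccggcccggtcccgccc
Coro1a (chr7:126704817-126705066, minus strand): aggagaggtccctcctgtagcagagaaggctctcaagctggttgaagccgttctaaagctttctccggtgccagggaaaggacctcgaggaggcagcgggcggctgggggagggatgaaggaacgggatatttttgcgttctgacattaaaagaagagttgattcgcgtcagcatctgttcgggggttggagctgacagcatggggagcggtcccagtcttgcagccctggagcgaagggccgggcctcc
Capg (chr6:72549397-72549646, plus strand): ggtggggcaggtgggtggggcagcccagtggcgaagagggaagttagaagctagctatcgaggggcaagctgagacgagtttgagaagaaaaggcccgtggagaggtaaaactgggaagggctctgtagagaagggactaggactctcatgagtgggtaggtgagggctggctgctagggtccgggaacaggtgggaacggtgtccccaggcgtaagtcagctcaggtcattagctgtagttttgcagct
Arpc1a (chr5:145083619-145083868, plus strand): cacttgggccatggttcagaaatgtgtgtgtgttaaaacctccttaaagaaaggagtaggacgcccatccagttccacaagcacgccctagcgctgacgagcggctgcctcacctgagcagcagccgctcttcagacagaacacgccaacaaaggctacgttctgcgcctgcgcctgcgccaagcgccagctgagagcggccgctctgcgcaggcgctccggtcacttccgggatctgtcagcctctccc
Actg1 (chr11:120348496-120348745, minus strand): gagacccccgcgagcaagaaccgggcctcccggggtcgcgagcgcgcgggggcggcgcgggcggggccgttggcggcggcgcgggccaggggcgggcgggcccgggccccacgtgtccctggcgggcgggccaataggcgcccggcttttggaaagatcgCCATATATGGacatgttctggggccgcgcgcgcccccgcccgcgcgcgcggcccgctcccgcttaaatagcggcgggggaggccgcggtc
Vcl (chr14:20929148-20929397, plus strand): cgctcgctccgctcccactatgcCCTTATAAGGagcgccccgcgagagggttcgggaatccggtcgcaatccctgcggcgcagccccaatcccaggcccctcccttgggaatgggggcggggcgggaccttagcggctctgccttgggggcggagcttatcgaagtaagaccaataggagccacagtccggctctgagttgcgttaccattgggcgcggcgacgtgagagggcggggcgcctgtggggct

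Windows from 250 bases before to 50 after a start were searched on both strands. The hexamers bound by GATA factors were AGATAA in 1 form, AGATAG with another last base, TGATAA with another first base, and TGATAG with both changes. The CArG box was searched by its consensus, and Myl6, the only member with both motifs, had them at -220 and -50, without overlap. Neither motif occurs in the windows of Flna, Coro2a, Coro1a, Capg or Arpc1a, whereas the Actg1 window has a CArG box at position -90 and the Vcl window at -227 from the start. Of 45 members in the promoter table, 5 had a CArG box (11.1%), against 1.81% of the 27025 genes in it: Actg1, Vcl, Arpc4, Myl6 and Myl9. The measured genes among these 5 had log2 ratios between -0.41 and 0.07, and Myl9 was below the floor. GATA hexamers were found in 12.3% of the members' 57 windows, against 29.8% of all 32851, namely in those of Capza2, Cfl1, Myl6, Pfn1, Rdx, Tmsb4x and Vasp. A match describes these letters only and is not evidence of binding, and the absence of a match covers only this window.

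A wider list of 111 actin genes, among them Diaph1 and Diaph2 for the listed Diap1 and Diap2, placed the members among their partners. Of these 103 had probe sets and 68 were measured, with 4 at least 2-fold lower (5.88%) and 1 at least 2-fold higher (1.47%), against 1.10% and 2.04% of all genes. At 1.5-fold 13 were lower (19.1%, against 4.85%), Diaph1 among them, and 1 higher (1.47%, against 7.11%). Their median log2 ratio was -0.15, and 45 of the 68 lay below 0.

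Formins, which nucleate and lengthen unbranched filaments, included differences both ways. Daam1, a formin of Wnt signalling, read 1664 and 3991, so 2.40-fold more with estradiol (1.26 on the log2 scale, with 1.36 on its other measured probe set). Inf2, a formin that also severs, read 684 and 306, 2.24-fold lower (-1.16, with -0.87 on the other), and it was no longer past 2-fold when s and x probe sets were left out. Diaph1, another formin gene, read 1498 and 865, 1.73-fold lower (-0.79, with -0.56 on the other), and Diaph2 was below the floor. The formins therefore did not differ as a block.

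The remaining genes of the wider list past 2-fold lower were a scaffold, a myosin and a LIM protein. Slc9a3r1, which encodes the scaffold EBP50 that binds ERM proteins, read 5838 and 2590, 2.25-fold lower, with all 3 probe sets between -1.38 and -1.17. Myo1g, a membrane-bound myosin of blood cells, read 1002 and 425, 2.36-fold lower, on 1 probe set. Lasp1, a LIM protein that binds filaments, read 1866 and 635 on its brightest probe set, 2.94-fold lower, but its 9 measured probe sets ran from -1.55 to 0.45 and so disagree. It was still past 2-fold lower with the median over its probe sets and when s and x probe sets were left out. Actn3, the fast muscle alpha-actinin, went from 30.4, below the floor, to 315, at least 3.31-fold higher on 1 probe set.

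In the class of monomer and filament turnover, 3 of 7 measured genes were past 1.5-fold lower. Wdr1, a partner of cofilin, read 2540 and 1580 (-0.68), Twf2, a twinfilin gene, read 1574 and 1015 (-0.63), and Flii, a gelsolin relative, read 2574 and 1680 (-0.62). Tagln2, a small filament-binding protein gene, read 4405 and 2472, 1.78-fold lower (-0.83). Srf itself read 777 and 457, 1.70-fold lower (-0.77), with -0.37 on its other probe set, while its cofactor genes Mrtfa and Mrtfb had log2 ratios of 0.07 and 0.10, the latter with 0.91 on a second probe set. Of the 12 measured WAVE and WASP partner genes 0 passed 1.5-fold, against 4.85% of all genes lower and 7.11% higher. Among those with bounds only, Abi3 was at least 1.87-fold lower and Wasf3 at least 1.69-fold higher, and a second probe set of the measured Abi1 had a log2 ratio of 0.97. Tropomyosins and tropomodulins had the highest median of the classes plotted, 0.26 over 4 measured genes, among them Tpm1 and Tmod3 at 0.42 each.

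**Figure D4:**
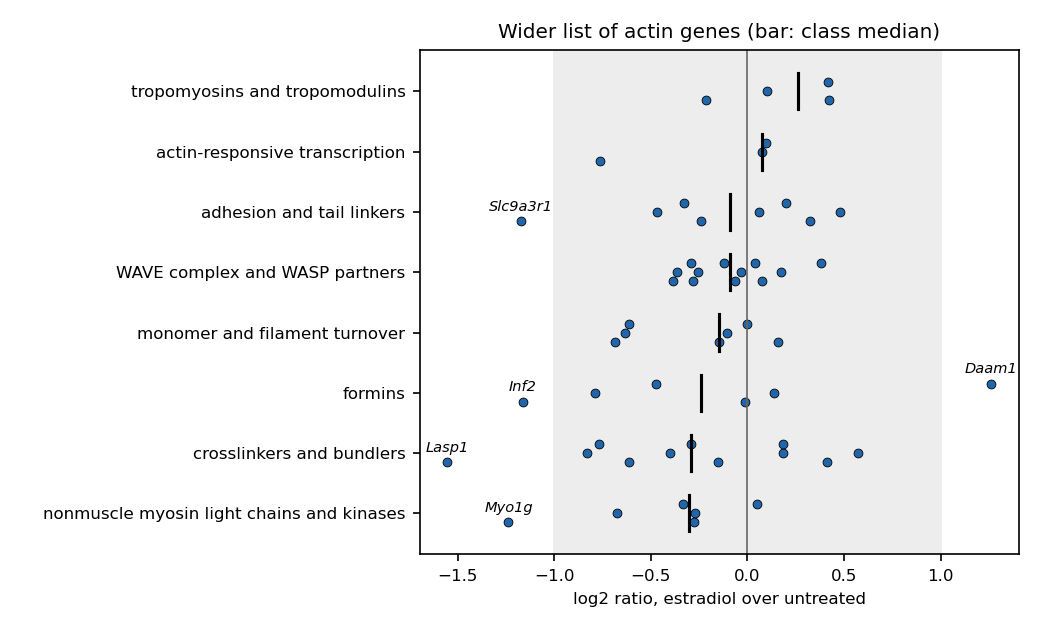
Log2 ratio of estradiol over untreated of 57 of the 68 measured genes of the wider actin list, each point 1 gene, by class, with a bar at the class median and grey for changes within 2-fold. Genes past 2-fold are named: Daam1 is the only one to the right, and Lasp1, Myo1g, Slc9a3r1 and Inf2 lie to the left.

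**Figure D5:**
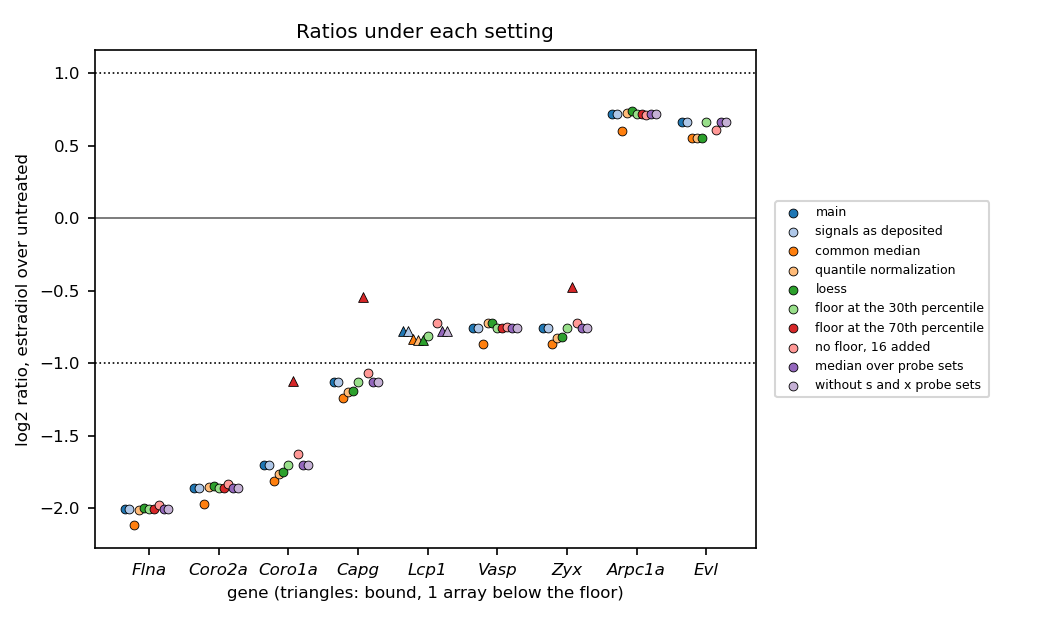
Log2 ratios of 9 members under the main setting and 9 alternatives of scaling, floor and probe set choice, with triangles where 1 array lay below the floor and dotted lines at 2-fold. Flna stays between -2.12 and -1.98 and Coro2a between -1.97 and -1.84, while the values of Coro1a, Capg and Zyx shrink to bounds with the floor at the 70th percentile.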

How the data were processed

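Total RNA was labelled with biotin and hybridised to short-oligonucleotide arrays, 1 for untreated cells and 1 for cells after estradiol. The deposited values are linear signal intensities made with GCOS, per the submitters' processing notes. Its version and settings for background and scaling are not given in the sources used here. Trimmed by 2%, both arrays had a mean of 500.0. Probe-level files and detection calls were not used here.

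Signals were rescaled to a common trimmed mean over probe sets that were not controls (factors 0.999941 and 1.00006). The floor was the 50th percentile of these signals. Where 1 array reached it, the other was raised to it and the ratio is a bound. Precision is limited by the number of arrays. Genes were named through the platform annotation: 34945 probe sets had 1 gene symbol, 932 several and 9160 none. The pooled SD came from 12514 probe sets of 4586 genes. Named genes are all members, genes of the wider list past 2-fold and examples of each class, and cell type markers. Members, lists and rules were chosen with earlier results of these data known, and examples at 1.5-fold after their values were seen. For 1 class of the wider list, counted in its totals, the values are not reported here. Alternatives covered scaling, floor, probe set choice and thresholds. The steps were tested on simulated data. Python 3.11.15, numpy 2.4.6, pandas 2.3.3, scipy 1.17.1, statsmodels 0.14.6 and matplotlib 3.10.9 were used.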

Additional observations from a re-analysis of the deposited data

How the results depend on the processing

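Flna, Coro2a, Coro1a and Capg were the only members past 2-fold lower, and none was past 2-fold higher, under each alternative that kept the 2-fold threshold, except with the floor at the 70th percentile. That floor left 2 genes and 2 probe sets lower, those of Flna and Coro2a, because Coro1a and Capg then had only bounds. The bound of Coro1a (-1.12) was still past 2-fold and that of Capg (-0.55) was not. At 3-fold, Capg dropped out, which left 3 of 38 members lower, and the wider list had 0 of 68 genes higher and 0 lower. Of all 10240 genes, 49 were at least 3-fold higher and 21 lower. At 1.5-fold, 2 members were higher (Arpc1a and Evl), 4 and 7 member probe sets were higher and lower, and 13 genes of the wider list were lower. With the floor at the 30th percentile, 2 dim probe sets of 83 measured for members (of Coro1c and Tln1) were at least 2-fold higher. So were 3 of 87 measured wider genes (Daam1, Fmnl2 and Wasf3). With no floor and 16 added to each signal, 2 of 103 member probe sets were higher (of Capzb and Pfn2) and 8 lower. Of 103 wider genes, 2 were then higher and 7 lower. These dim signals have no established order. Among all genes, 209 higher and 113 lower of 10240 became 160 and 161 of 10246 under a common median. With the floor at the 70th percentile, 130 of 7122 measured genes were higher and 65 lower. With the 30th percentile the counts were 439 and 288 of 13461, and with no floor 679 and 512 of 18193. Over the scalings, the members with a ratio below 0 numbered from 26 of 38 with loess to 32 of 38 with a common median. The median log2 ratio of all genes was -0.01 with loess and -0.11 with a common median, so these counts move with a shift of all genes. The share of all genes below 0 was not counted under these scalings. Leaving out probe sets with the suffix s or x, an alternative chosen after seeing the data, kept the same 4 members, but left 3 genes of the wider list lower, without Inf2, which also had only a bound with the floor at the 70th percentile. No paired analysis was possible because each group held 1 array and the labels carry no replicate numbers.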

Other observations

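Probe sets that the annotation gives to several genes were left out above, and 4 of them name a member. A probe set shared by Arpc1b, the alternative p40 subunit gene of the Arp2/3 complex, and Gm5637 read 4833 untreated and 2633 with estradiol, 1.84-fold lower (log2 ratio -0.88). This is opposite in direction to Arpc1a, which was 1.64-fold higher. The second probe set with these symbols read 65.0 and 26.3, below the floor on both arrays. Which of the 2 genes gave the signal is not known from the annotation. Of the pair of probe sets shared by Myl6, Gm5526 and Gm8894, 1 read 5351 and 4502 (-0.25) and the other 8378 and 7448 (-0.17), close to the -0.22 of the probe set assigned to Myl6 alone.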
